A study of Homo sapiens with 9 samples.

Results

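AML1-ETO, the fusion protein made by the t(8;21) translocation of acute myeloid leukemia, was compared with an empty vector in U937 cells, a monocyte-like human leukemia line, with both lines at 48 h of doxycycline. The members of the comparison are 12261 genes of the 60623 in the files, those whose FPKM averaged 1 or more in these 2 libraries. FPKM is the number of reads on a gene scaled to exon length and to the size of the library. For each gene the ratio was log2((AML1-ETO + 0.1)/(empty vector + 0.1)), and a gene was counted as higher or lower when it was past 2-fold, unless it was past 2-fold in the same direction between the same lines at 0 h, in which case it was set aside.

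The study holds 9 RNA-seq libraries, from the AML1-ETO line (clone #4), the ETO2-GLIS2 line (clone #14) and the empty vector line at 0, 12 and 48 h of 5 μg/ml doxycycline, which switches the integrated construct on. The AML1-ETO line carries an HA-tagged cDNA in the retroviral vector pRetrox-Tet3G and is a line grown from a single cell, so that a difference from the empty vector line can come from the fusion protein or from the clone, and these cannot be told apart at 48 h alone. The labels give the genotype of the AML1-ETO libraries as AE over-expressed and that of the empty vector libraries as WT. Each side has 1 library, with 15216889 reads on genes in AML1-ETO and 15391990 in empty vector (15136399 to 18443670 over the 9 libraries). There is therefore no replicate check, and no p-value is given. Intervals are exact 95% Clopper-Pearson intervals of the ratio of reads, without the added 0.1. They cover counting error only, and not variation between cultures or libraries. The reads carry no molecular identifiers and may be copies of the same molecule, so the intervals may be too narrow even for counting error. In bulk RNA, fewer cells of a type and less RNA per cell cannot be told apart.

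RUNX1, also called AML1, binds DNA at genes that blood cells need, and RUNX1T1, also called ETO, is a corepressor that brings in histone deacetylases. In the fusion protein the corepressor is carried to the sites that RUNX1 reads. In myeloid cells the fusion protein meets PU.1 and C/EBPα, the factors that switch on the receptors, adhesion molecules and granule proteins of monocytes and granulocytes. Interferon-stimulated genes are a separate program: they are switched on together by interferons or by foreign nucleic acid, through factors such as STAT2 and IRF9 bound to a short element in their promoters.

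At 48 h, 1171 genes (9.55% of those measured) were higher and 1343 genes (11.0%) were lower in the AML1-ETO line. These shares are the background for the 48 h list counts below. Counts of short lists that lie near them are values only. Before any gene was set aside the counts were 1355 (11.1%) and 1397 (11.4%), so that 184 higher and 54 lower genes had already been past 2-fold at 0 h. Between the same lines at 0 h, 281 genes (2.48%) were higher and 209 (1.85%) lower among 11319 genes. The SD of the log2 ratio over the 4852 genes averaging 10 FPKM or more was 0.287 at 0 h, 0.481 at 12 h and 0.987 at 48 h. In that better expressed set the lower genes outnumbered the higher ones, with 265 genes higher (5.46%) and 517 lower (10.7%). The median log2 ratio of all measured genes was 0.07 at 48 h.

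The ratios reached far beyond 2-fold. Among the higher genes 309 were past 4-fold and 89 past 16-fold, and among the lower genes 411 and 87. Near the threshold, 168 higher genes had a log2 ratio under 1.1 and 248 genes fell between 0.9 and 1, and on the other side 167 and 204. The counting interval lay wholly past 2-fold for 615 of the 1145 higher genes and for 912 of the 1319 lower genes that have an interval. Protein-coding genes were 62.4% of the 1157 higher and 80.6% of the 1329 lower genes found in the annotation. The share over all measured genes was not computed, so these shares and the protein-coding counts below have no background beside them.

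**Figure D1:**
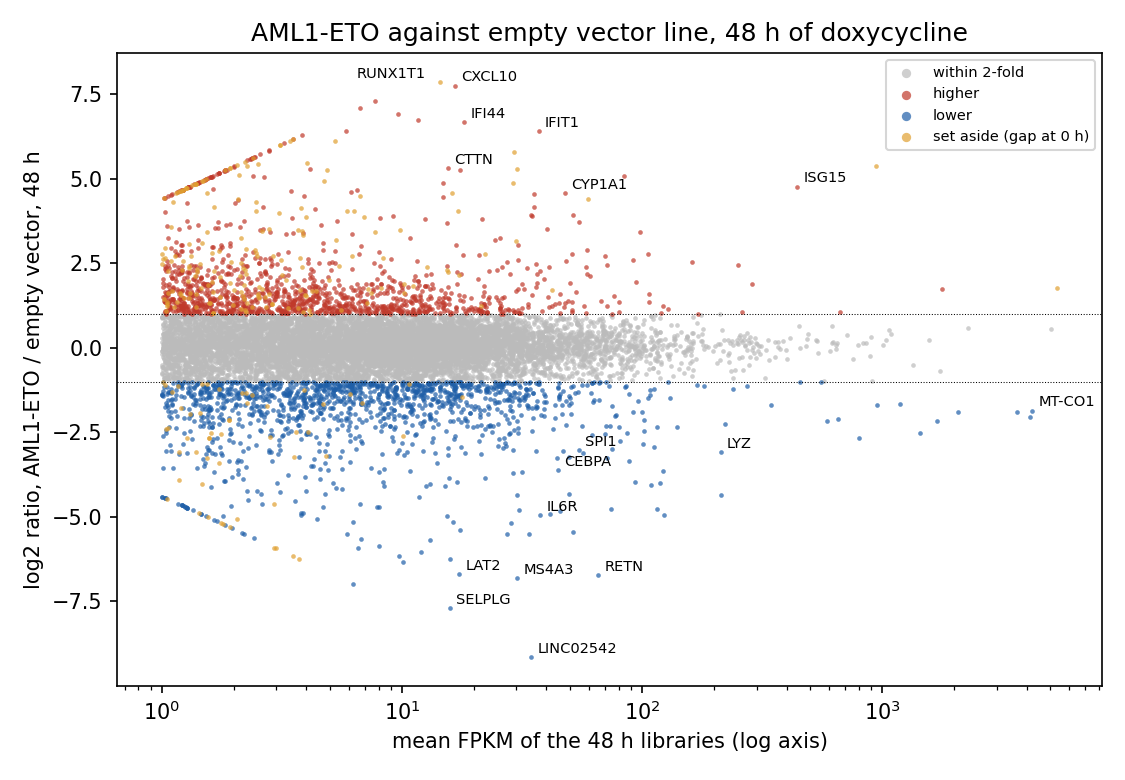
Each point is 1 of the 12261 measured genes, with the mean FPKM of the 48 h libraries on a log axis and the log2 ratio of AML1-ETO to empty vector on the vertical axis. Dotted lines mark 2-fold, red and blue points are the 1171 higher and 1343 lower genes, amber points were set aside, and the straight edges at the left are genes listed at 0 in 1 of the libraries.

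The introduced transcript was seen through RUNX1T1 (ENSG00000079102), which went through 0.512, 22.2 and 28.7 FPKM at 0, 12 and 48 h with AML1-ETO, against at most 0.0240 FPKM with empty vector. It was set aside, since its log2 ratio was already 2.61 at 0 h, before the drug. RUNX1, whose sequence the fusion transcript also carries, had 26.2 FPKM in empty vector and 16.8 FPKM in AML1-ETO at 48 h, a log2 ratio of -0.64. Within this family of 7 genes, 3 were lower and none were higher. CBFA2T3, which encodes the related corepressor ETO2, had 5.26, 2.28 and 0.220 FPKM across the times with AML1-ETO, against 6 FPKM in empty vector at 48 h (log2 ratio -4.25). RUNX3, a paralog of RUNX1, and CBFB, the shared partner of RUNX proteins, had log2 ratios of -1.34 and -1.06. RUNX2 (0.64) and CBFA2T2 (0.61) were within 2-fold.

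The master regulators of the monocytic program were lower. SPI1 (ENSG00000066336, chromosome 11, 47354860 to 47378547 on GRCh38), which encodes PU.1, had 67.0, 76.9 and 97.3 FPKM at 0, 12 and 48 h in the empty vector line and 92.6, 53.1 and 11.9 FPKM in the AML1-ETO line. The 2 lines moved apart in opposite directions, and the log2 ratio went from 0.47 at 0 h through -0.53 to -3.02 (log2 ratio of reads -3.03, interval -3.19 to -2.88). CEBPA, which encodes C/EBPα, had 61.0, 71.7 and 82.9 FPKM in empty vector and 98.5, 37.5 and 6.62 FPKM in AML1-ETO, a log2 ratio of -3.63 at 48 h. Exons of a gene on the other strand cover 43.9% of the CEBPA exon bases, and the library kit does not mark strand.

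CEBPB, which encodes C/EBPβ, took another course, with 21, 42.1 and 50.3 FPKM in empty vector and 30.4, 14.9 and 19.8 FPKM in AML1-ETO. Its log2 ratio was already -1.50 at 12 h and -1.34 at 48 h, and the log2 difference of 48 h from 0 h was 1.25 with empty vector and -0.61 with AML1-ETO. In the whole list, 14 of 32 measured myeloid transcription factors were lower, 4 were higher and 1 was set aside, with a median log2 ratio of -0.70 against 0.07 for all measured genes. NFE2, a bZIP factor of the megakaryocyte and erythroid lineages, was lower by the widest margin of the list (3.85 against 0.0556 FPKM, log2 ratio -4.67, from 140 against 2 reads, log2 ratio of reads -6.11, interval -9.17 to -4.23), followed by BHLHE40, a bHLH repressor (-4.09), and ahead of RXRA, a partner of nuclear receptors (-3.09).

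The E proteins, bHLH factors that bind the ETO moiety, and the ID inhibitors that titrate them were listed with their partners. Among 7 measured genes, ID2 (19.8 against 4.99 FPKM, log2 ratio -1.97) and LYL1 (54.7 against 18.5 FPKM, -1.56) were lower, and TCF3 (-0.73) and TCF12 (-0.17) were within 2-fold. RHOU, an atypical small GTPase, had 44.3 FPKM in empty vector and 6.68 FPKM in AML1-ETO (log2 ratio -2.71). At 48 h the ETO2-GLIS2 line, which is compared here only by its own values since it shares the empty vector library, had 73.9 FPKM of RHOU, 80.9 FPKM of SPI1 and 24.5 FPKM of CEBPA.

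**Figure D2:**
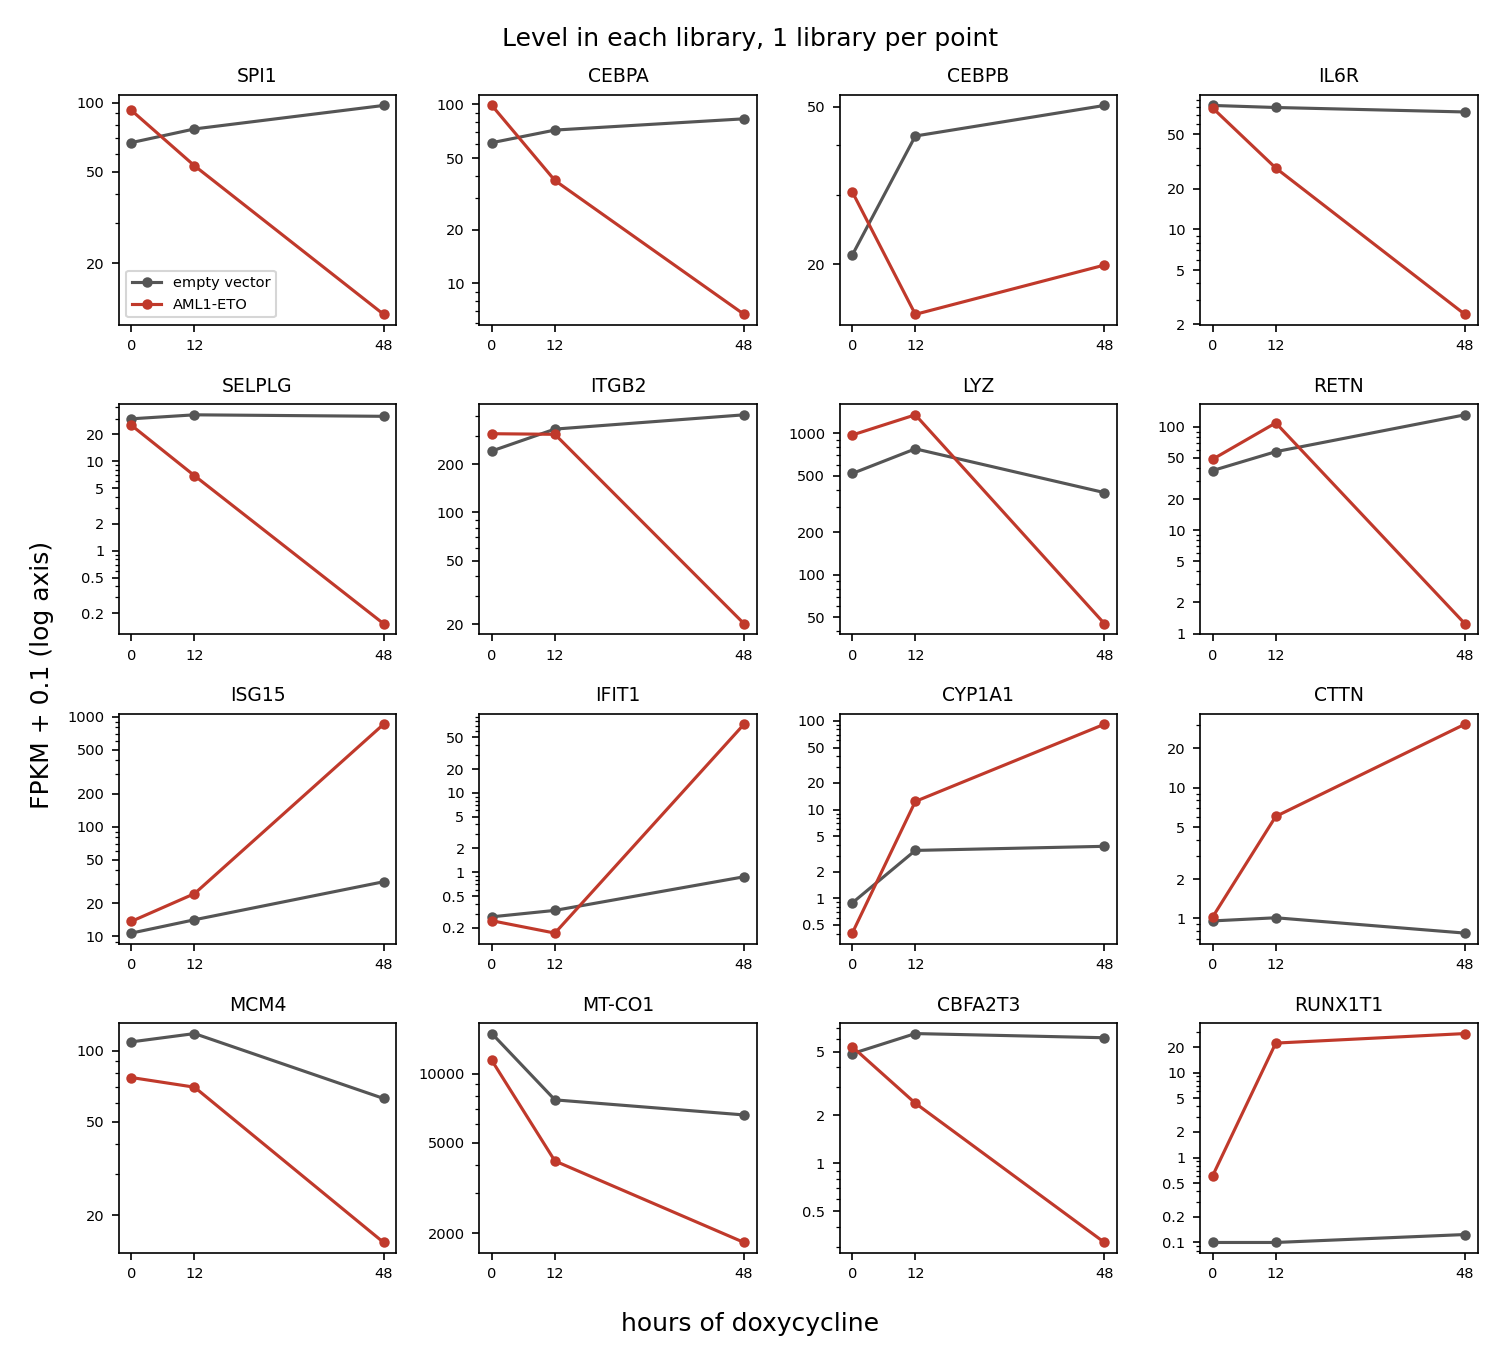
FPKM plus 0.1 on a log axis against hours of doxycycline for 16 genes, with the empty vector line in grey and the AML1-ETO line in red, 1 library per point and lines drawn only to join points. IL6R, SELPLG and CBFA2T3 were past 2-fold lower at 12 h (-1.48, -2.26 and -1.45), while SPI1, ITGB2, LYZ, RETN, ISG15 and IFIT1 were within 2-fold then (-0.53, -0.11, 0.80, 0.92, 0.79 and -0.95) and past it at 48 h.

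The protein-coding gene with the lowest ratio was an adhesion molecule. SELPLG (ENSG00000110876, chromosome 12), the P-selectin ligand that lets leukocytes roll on vessel walls, had 29.8, 33.0 and 31.8 FPKM in empty vector and 25.2, 6.81 and 0.0527 FPKM in AML1-ETO. At 48 h this was 1219 reads against 2, a log2 ratio of reads of -9.23 with an interval from -12.28 to -7.38. FUT7, the fucosyltransferase that completes the selectin-binding sugar on this ligand, had 2.69 FPKM in empty vector and was listed at 0 in AML1-ETO, at least 35.3-fold lower against a floor of 3 reads in the library. Another gene on the same strand covers 34.2% of its exon bases.

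The leukocyte integrins followed. ITGAL, the alpha chain of LFA-1, had 4.02, 16 and 23.8 FPKM in empty vector and 2.53, 4.86 and 0.267 FPKM in AML1-ETO, and ITGB2, the shared beta chain, had 408 against 20.1 FPKM at 48 h (log2 ratios -6.03 and -4.34). ITGAM, which encodes CD11b, was low in each line, at 2.78 against 0.832 FPKM (-1.63). CXCR4, the receptor that holds cells in the marrow, had 59.6 against 2.07 FPKM (-4.78), and a log2 ratio of 0.23 at 12 h. In the list of adhesion and homing genes 10 of 21 were lower and none were higher, with a median log2 ratio of -0.95.

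Among growth factor and cytokine receptors, 8 of 20 measured genes were lower and 1 was higher (median -0.11), led by IL6R, the interleukin 6 receptor, at 73.2 against 2.27 FPKM (log2 ratio -4.95). TNFRSF1B, the second TNF receptor, was at -2.96, IL10RA, the interleukin 10 receptor, at -2.61 and FLT3, the progenitor receptor kinase, at -2.57. CSF1R, the macrophage growth factor receptor, had 1.43 FPKM in empty vector and 0.0128 in AML1-ETO, a mean under the minimum, and so was not counted.

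The immunoreceptor signalling list held 13 lower genes and 1 higher gene of 30 measured (median -0.63). LAT2, an adaptor of Fc receptor signalling, had 36.3, 36.0 and 34.4 FPKM in empty vector and 35.8, 12.5 and 0.231 FPKM in AML1-ETO (log2 ratio -6.70). FGR, a Src-family kinase of myeloid cells, was at -5.52, TYROBP, the DAP12 adaptor, at -4.09, and VAV1, an exchange factor for Rac, at -3.17. In the mixed list of monocyte surface, Fc and pattern receptors, 11 of 25 measured genes were lower and 1 was higher (median -0.76). A further 3 were past 2-fold higher and set aside. FCER1G, the gamma chain of Fc receptors, had 133 against 16.8 FPKM (-2.98), CD93 148 against 25.9 FPKM (-2.51), and the inhibitory receptor LILRB2 2.03 against 0.155 FPKM (-3.06). CD36, a scavenger receptor, went the other way, at 0.173 against 6.72 FPKM (4.64).

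LYZ, which encodes lysozyme, had 519, 775 and 380 FPKM in empty vector and 970, 1346 and 45.1 FPKM in AML1-ETO, so that it was higher than the control at 0 and 12 h and lower at 48 h (log2 ratios 0.90, 0.80 and -3.07, with 34.7% of its exon bases under a gene on the other strand). RETN, which encodes the secreted protein resistin, had 37.6, 57.4 and 130 FPKM in empty vector and 48.5, 109 and 1.15 FPKM in AML1-ETO (0.36, 0.92 and -6.71). LYZ and RETN were above the control at 12 h and below it at 48 h.

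The granule list as a whole held 12 lower and no higher genes of 16 measured. Its median log2 ratio was 0.47 at 0 h, 0.46 at 12 h and -2.63 at 48 h, and at 12 h 2 of its genes were past 2-fold higher and 1 past 2-fold lower. The lower gene at 12 h was MS4A3, a membrane protein of myeloid precursors, with 97.4 against 42.0 FPKM (-1.21), and at 48 h it had 60.1 against 0.442 FPKM (-6.80). At 48 h CST7, an inhibitor of granule proteases, had 101 against 2.21 FPKM (-5.44). The granule protease CTSG was at -4.90 (-0.90 at 12 h), the eosinophil-type ribonuclease RNASE2 at -4.76, the antimicrobial protein AZU1 at -3.10 and neutrophil elastase, ELANE, at -1.23. In the phagocyte NADPH oxidase list of 6 genes 1 was lower, the GTPase RAC2 (88.1 against 3.02 FPKM, -4.82), and 1 was higher. Lysosomal genes were mostly within 2-fold, with 6 of 25 lower and none higher (median -0.26), among them LAPTM5 (-3.35) and the protease CTSD (-2.57).

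Promoters of 4 lower genes are shown because they hold a RUNX-type or an ETS-type word, the sequences that AML1 and PU.1 are known to read. They come from RefSeq on GRCh38.p14 and are the 250 bases before the start, written 5′ to 3′ along the gene, for RETN (chr19:7668799-7669048, plus strand), FCER1G (chr1:161215045-161215294, plus strand), CTSG (chr14:24576251-24576500, minus strand) and TYROBP (chr19:35908296-35908545, minus strand). Capitals mark TGTGGT in RETN and FCER1G and GAGGAAG in CTSG and TYROBP, on either strand. Only 1 word is marked in each promoter, and RETN also holds GAGGAAG on the other strand, left in small letters.
RETN: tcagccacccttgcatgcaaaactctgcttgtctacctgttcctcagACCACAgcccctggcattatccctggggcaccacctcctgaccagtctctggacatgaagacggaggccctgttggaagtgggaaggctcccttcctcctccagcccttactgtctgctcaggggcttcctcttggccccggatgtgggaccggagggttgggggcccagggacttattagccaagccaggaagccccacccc
FCER1G: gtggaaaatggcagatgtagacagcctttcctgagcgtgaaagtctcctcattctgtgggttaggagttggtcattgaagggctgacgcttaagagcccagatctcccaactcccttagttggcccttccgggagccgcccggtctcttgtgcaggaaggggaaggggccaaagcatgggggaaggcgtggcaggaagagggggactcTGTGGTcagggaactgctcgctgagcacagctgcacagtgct
CTSG: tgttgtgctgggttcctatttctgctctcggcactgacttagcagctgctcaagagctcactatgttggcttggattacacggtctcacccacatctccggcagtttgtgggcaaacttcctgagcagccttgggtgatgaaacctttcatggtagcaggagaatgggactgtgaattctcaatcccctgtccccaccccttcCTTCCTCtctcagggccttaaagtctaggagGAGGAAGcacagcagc
TYROBP: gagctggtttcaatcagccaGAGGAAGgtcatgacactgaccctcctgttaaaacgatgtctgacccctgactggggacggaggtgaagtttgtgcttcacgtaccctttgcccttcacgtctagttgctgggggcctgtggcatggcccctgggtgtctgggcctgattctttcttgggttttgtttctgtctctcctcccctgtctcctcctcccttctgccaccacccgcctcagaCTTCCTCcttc
Of the measured genes, 8234 symbols have such a promoter in the table, 609 of them higher and 873 lower. Shares are of genes, and a gene was counted when any of its promoters held the word. TGTGGT was found for 12.9% of lower genes, 9.03% of higher genes and 10.7% of all measured genes. GAGGAAG was found for 19.8% of lower, 15.1% of higher and 15.7% of measured genes. Counted by promoter, which is another measure, the shares over all 35116 promoters in the table were 11% and 11.2%. A match is a stretch of letters and not a site, neither word contains the other, and in CTSG and TYROBP the marked word stood at 2 places.

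The list with the highest median was that of interferon-stimulated genes, of which 32 of 41 measured were higher, none were lower and 5 were set aside. The median log2 ratio of the 41, set-aside genes included, was 0.11 at 0 h, 0.03 at 12 h and 3.71 at 48 h. Over all measured genes it was 0.07 at 48 h. The summed level of all 48 listed genes, including those set aside or under the minimum, was 371 FPKM in empty vector and 4934 FPKM in AML1-ETO. ISG15 (ENSG00000187608, chromosome 1, 1013497 to 1014540), the ubiquitin-like modifier, had 10.6, 14.1 and 31.4 FPKM in empty vector and 13.6, 24.4 and 856 FPKM in AML1-ETO (log2 ratio 4.76, interval of the read ratio 4.63 to 4.91). The log2 ratio of ISG15 at 12 h was 0.79.

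IFIT1, which binds foreign RNA, and IFIT3, of the same family, had 0.774 against 73.5 FPKM and 4.76 against 163 FPKM (log2 ratios 6.39 and 5.07). OASL and OAS1, of the oligoadenylate synthetase family, had 0.794 against 34.0 FPKM and 1.20 against 28.5 FPKM (5.25 and 4.46). DDX58, which encodes the RNA sensor RIG-I, had 2.83 against 68.4 FPKM (4.55), with 43.2% of its exon bases shared with a gene on the same strand. CXCL10, a chemokine for T cells, had 1 read in empty vector and 594 in AML1-ETO (0.0553 against 33.3 FPKM), a log2 ratio of reads of 9.23 with an interval from 6.75 to 14.54.

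The closely related genes IFI44 (0.255 against 36.2 FPKM, 6.68) and IFI44L (0.0381 against 11.7 FPKM, 6.42, from 3 against 908 reads, log2 ratio of reads 8.26, interval 6.71 to 10.54) were under 0.1 FPKM in every library of either line before 48 h. Of the genes set aside, IFI6, with 19.3, 27.7 and 44.8 FPKM in empty vector and 49.9, 66.5 and 1838 FPKM in AML1-ETO, already had a log2 ratio of 1.36 at 0 h and reached 5.36. SAMD9L (5.77 at 48 h, 2.49 at 0 h) and IFIT2 (5.29 and 1.25) were set aside for the same reason. At 48 h the ETO2-GLIS2 line had 38.5 FPKM of ISG15 and 1.52 FPKM of IFIT1.

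Promoters of 4 of these genes are shown for the element that STAT2 and IRF9 are known to bind as parts of one complex. The letters searched were GAAANNGAAA on either strand, a pattern chosen after the values were seen, in the 250 bases before the start, for ISG15 (chr1:1013247-1013496, plus strand), IFIT1 (chr10:89392373-89392622, plus strand), CXCL10 (chr4:76023498-76023747, minus strand) and IFI44L (chr1:78620198-78620447, plus strand). Capitals mark every match.
ISG15: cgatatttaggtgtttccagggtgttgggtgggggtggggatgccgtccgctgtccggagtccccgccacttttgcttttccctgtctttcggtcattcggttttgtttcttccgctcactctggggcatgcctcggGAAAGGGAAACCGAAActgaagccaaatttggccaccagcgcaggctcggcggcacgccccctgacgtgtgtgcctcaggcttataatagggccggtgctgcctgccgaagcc
IFIT1: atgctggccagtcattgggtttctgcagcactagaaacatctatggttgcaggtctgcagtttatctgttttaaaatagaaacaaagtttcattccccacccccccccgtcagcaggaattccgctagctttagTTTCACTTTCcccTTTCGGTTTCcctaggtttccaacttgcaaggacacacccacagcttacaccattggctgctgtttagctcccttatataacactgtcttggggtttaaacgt
CXCL10: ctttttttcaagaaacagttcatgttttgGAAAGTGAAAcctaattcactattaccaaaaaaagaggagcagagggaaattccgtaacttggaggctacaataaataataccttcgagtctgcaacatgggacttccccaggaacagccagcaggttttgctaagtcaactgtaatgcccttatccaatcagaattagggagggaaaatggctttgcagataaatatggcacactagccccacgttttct
IFI44L: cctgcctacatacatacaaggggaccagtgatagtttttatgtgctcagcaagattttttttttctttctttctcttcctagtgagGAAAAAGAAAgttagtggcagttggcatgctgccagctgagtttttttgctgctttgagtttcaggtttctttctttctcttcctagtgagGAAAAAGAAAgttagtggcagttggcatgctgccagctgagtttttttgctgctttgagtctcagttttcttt
The letters stood in any promoter of 19 of the 29 interferon-stimulated genes with a promoter in the table (65.5%) and of 3.45% of measured genes. Among the higher genes outside this list the share was 6.66%, or 39 of 586, and among lower genes 2.86%. Counted by promoter, which is another measure, the share over all promoters was 3.02%. In ISG15, IFIT1 and IFI44L the letters matched at 2 places, which overlap in ISG15.

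Class I antigen presentation, which interferons also raise, shifted by less. Of 16 measured genes 4 were higher and none were lower (median 0.73, against 0.26 at 0 h): TAP1, the peptide transporter (10.1 against 46.4 FPKM, 2.19), NLRC5, the transactivator of class I genes (1.57), HLA-C (1.07), whose reads can be split with other class I genes, and B2M, the shared light chain (433 against 901 FPKM, 1.06). With the 0 h ratio subtracted HLA-C was at 0.59 and B2M at 0.68, within 2-fold. Class II genes were mostly under the minimum, and of the 4 measured RFXAP was lower (-1.08, and -0.95 with the 0 h ratio subtracted).

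**Figure D3:**
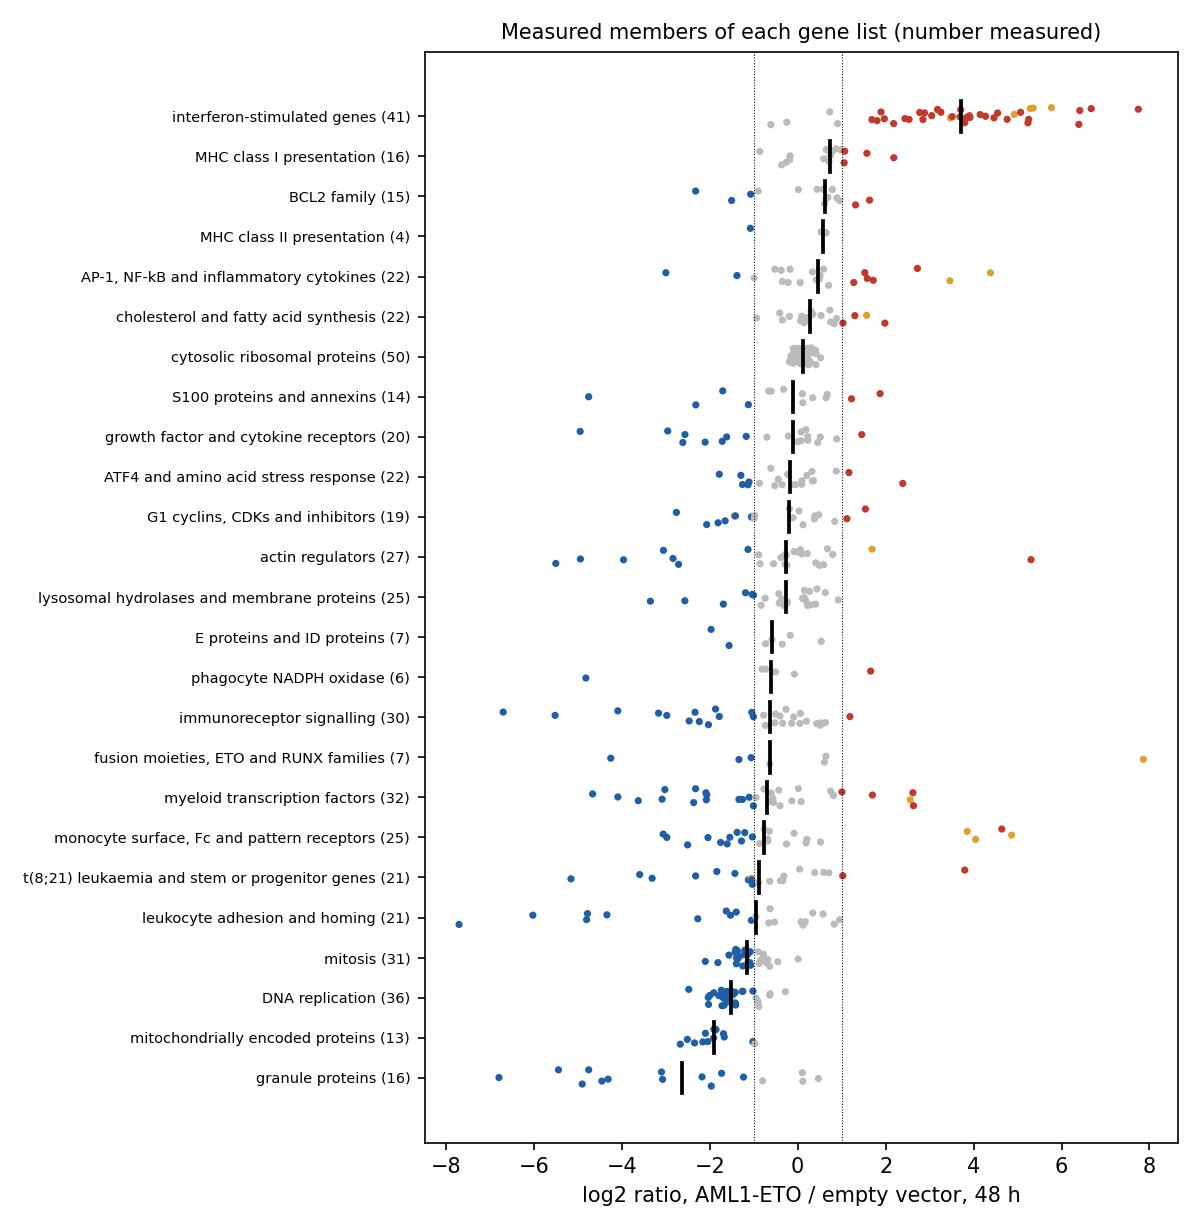
Each point is the log2 ratio of AML1-ETO to empty vector at 48 h for a measured member of a gene list, with the number measured beside the list name, and black bars are medians. Red, blue and amber points are higher, lower and set-aside genes, and lists run from granule proteins (median -2.63) to interferon-stimulated genes (median 3.71).

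Genes of DNA synthesis and division were lower together. In the DNA replication list 30 of 36 measured genes were lower and none higher, with medians of -0.41 at 0 h, -0.53 at 12 h and -1.53 at 48 h. MCM4, a subunit of the replicative helicase, had 109, 118 and 62.6 FPKM in empty vector and 76.8, 69.9 and 15.2 FPKM in AML1-ETO (log2 ratio -2.03). The thymidine kinase TK1 (-2.04) and the helicase subunit MCM5 (-2.00) had like ratios. At 0 h the log2 ratios of TK1, MCM4 and MCM5 were -0.51, -0.50 and -0.50.

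The mitosis list held 21 lower genes of 31 (median -1.14), among them CENPF (44.6 against 10.3 FPKM, -2.10), the securin PTTG1 (-1.82), survivin, BIRC5 (-1.57), and cyclin A2, CCNA2 (65.9 against 24.5 FPKM, -1.42). Of 19 regulators of the G1 phase, 6 were lower, 2 were higher and 1 was set aside (median -0.19). The activators E2F2 (11.8 against 1.66 FPKM, -2.76) and E2F1 (17.1 against 4.81 FPKM, -1.81) were lower, and cyclin D3, CCND3, was set aside with a log2 ratio of -1.44 at 48 h. Cytosolic ribosomal proteins were a contrast, with none of 50 past 2-fold and a range of log2 ratios from -0.19 to 0.52.

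Protein-coding transcripts of the mitochondrial genome were lower. Of the 13 protein genes 12 were lower, with a median log2 ratio of -1.91 at 48 h, -0.18 at 12 h and -0.25 at 0 h. MT-CO1, a subunit of cytochrome oxidase, had 15028, 7692 and 6606 FPKM in empty vector and 11449, 4149 and 1821 FPKM in AML1-ETO (-1.86). MT-ND3 was at -2.67, MT-ATP6 at -2.51 and MT-ND6 at -1.02, while MT-ND5, at -0.97, was just within 2-fold. MT-RNR1 and MT-RNR2, the ribosomal RNAs, named after their values were seen, had 814 against 2724 FPKM (1.74) and 2448 against 8294 FPKM (1.76). MT-RNR2 was set aside, with a ratio of 1.16 at 0 h, and with the 0 h ratio subtracted they were at 0.76 and 0.60, within 2-fold. Genes of the mitochondrial genome made up 15.5% of all FPKM in empty vector and 8.82% in AML1-ETO, against 23.5% and 20.9% at 0 h. FPKM is relative to the library, and the part of this shift in the ratios of other genes was not tested.

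**Figure D4:**
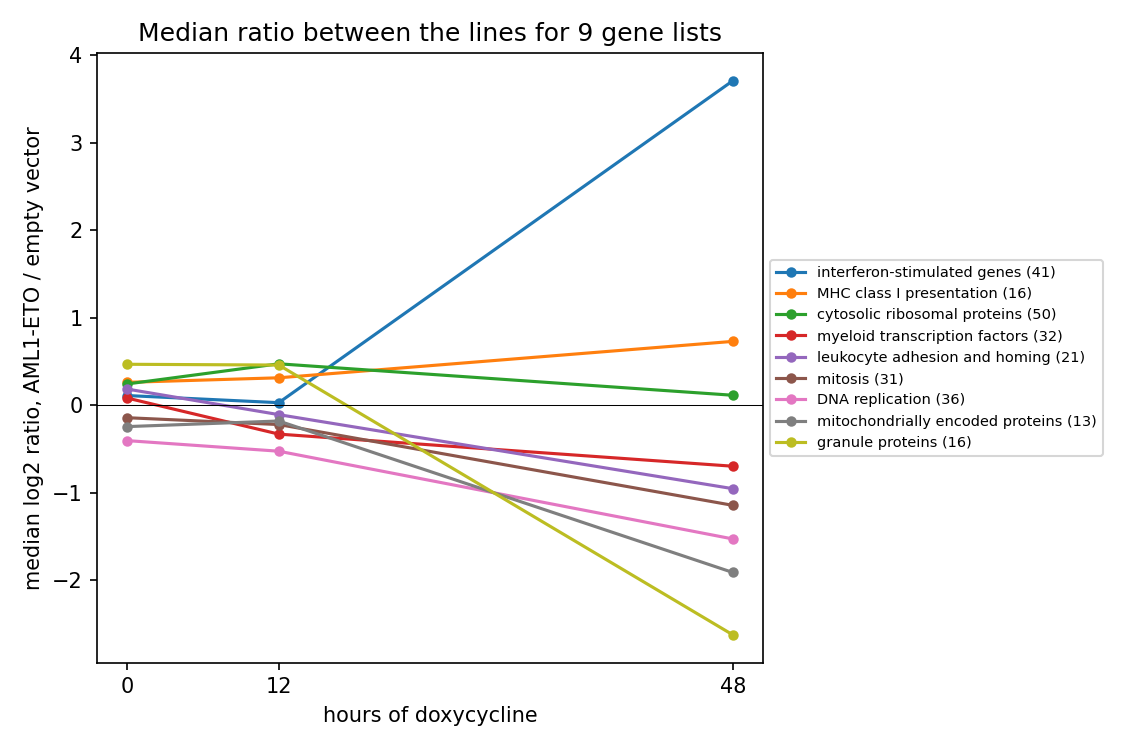
Median log2 ratio of AML1-ETO to empty vector against hours of doxycycline for 9 gene lists, with the number of measured genes beside each name and 1 library per line and time. Interferon-stimulated genes stay near 0 at 12 h (0.03) and reach 3.71 at 48 h, and granule proteins turn from 0.46 to -2.63.

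Among the smaller lists, structural and calcium-binding proteins of motile cells stood out in single members. Of 27 actin regulators 7 were lower, 1 was higher and 1 was set aside (median -0.26). MYO1G, a myosin of blood cells (66.0 against 1.36 FPKM, -5.50), the capping protein CAPG (240 against 7.69 FPKM, -4.94) and the crosslinker FLNA (175 against 11.1 FPKM, -3.96) were lower. CTTN, which encodes cortactin, was higher, with 0.858, 0.913 and 0.673 FPKM in empty vector and 0.929, 5.93 and 30.5 FPKM in AML1-ETO (5.31). In the S100 and annexin list of 14, 4 were lower and 2 higher (median -0.11), with S100A4 at 222 against 8.13 FPKM (-4.76), S100A6 at -2.32, S100A11 at -1.71 and ANXA1, an inhibitor of inflammation, at 1.87.

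Genes tied to t(8;21) leukemia or to progenitors were lower for 9 of 21, higher for 2 and set aside for 1 (median -0.89). CXXC5, a regulator of Wnt signalling, had 31.9 against 0.797 FPKM (-5.16), IGFBP7 8.52 against 0.613 FPKM (-3.60) and the Notch ligand JAG1 3.84 against 0.297 FPKM (-3.31). JUP, which encodes plakoglobin, was higher, with 8.12, 4.72 and 2.81 FPKM in empty vector and 12.1, 13.3 and 40.5 FPKM in AML1-ETO (3.80).

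The AP-1, NF-kB and cytokine list had 5 higher and 2 lower genes and 2 set aside of 22 (median 0.46, already 0.47 at 0 h). CCL5, a chemokine, was at 2.72, FOS at 1.72 (0.83 with the 0 h ratio subtracted) and RELB at 1.58, and NFKBIA, the inhibitor of NF-kB, was lower at 11.6 against 1.36 FPKM (-3.00). In the BCL2 family 2 of 15 were higher, BCL2A1 (25.7 against 80.1 FPKM, 1.63) and the pore-forming BAK1 (1.32), and 3 were lower, among them BCL2 (2.47 against 0.413 FPKM, -2.32) and BID (-1.50), with a median of 0.61. With the 0 h ratio subtracted BCL2A1 was at 0.72 and BAK1 at 0.50, within 2-fold. The ATF4 and amino acid stress list had 2 higher and 5 lower of 22 (median -0.18), with the cystine transporter SLC7A11 at 13.1 against 68.9 FPKM (2.39), MTHFD1L, of the mitochondrial folate pathway, at -1.79 and PHGDH, of serine synthesis, at -1.29 (-0.51 with the 0 h ratio subtracted). In cholesterol and fatty acid synthesis 3 of 22 were higher and 1 was set aside (median 0.28). Over all measured genes 9.55% were higher and 11.0% lower.

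The cholesterol genes are an example of a gap between lines that were each lower than at 0 h. DHCR7, the last enzyme of cholesterol synthesis, had 115, 20.6 and 5.84 FPKM in empty vector and 102, 25 and 14.5 FPKM in AML1-ETO (1.30). It was lower at 48 h than at 0 h in either line. ACACA, of fatty acid synthesis, was at 1.03, and at 0.81 with the 0 h ratio subtracted.

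A 48 h gap can stem from a move in either line. In 1013 of the 1171 higher genes the AML1-ETO line had moved further up from its own 0 h than the empty vector line had moved down, in 120 the empty vector line had moved further, and in 38 the gap at 0 h was the largest part. For the 1343 lower genes these counts were 1068, 253 and 22. The median log2 change from 0 to 48 h in the higher genes was 1.58 in the AML1-ETO line and 0.07 in its control, and in the lower genes -1.35 and 0.24. FCER1G shows the second case, with 34.3, 54.1 and 133 FPKM in empty vector against 40.5, 41.3 and 16.8 FPKM in AML1-ETO.

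In the gene with the lowest ratio of all, it was the control line that differed from its own 0 h. LINC02542 (ENSG00000226453, chromosome 6, 81843781 to 82101765), a long noncoding RNA, had 0.0426, 48.7 and 69.1 FPKM in the empty vector line and 0, 0 and 0.0228 FPKM in the AML1-ETO line, and 0.0423 FPKM in the ETO2-GLIS2 line at 48 h. Its log2 ratio was -9.14 at 48 h and -8.93 at 12 h, from 3070 reads against 1. It was thus above 1 FPKM at 48 h in the empty vector line and in neither of the other lines. The log2 ratio of reads was -11.57, with an interval from -16.87 to -9.09.

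**Figure D5:**
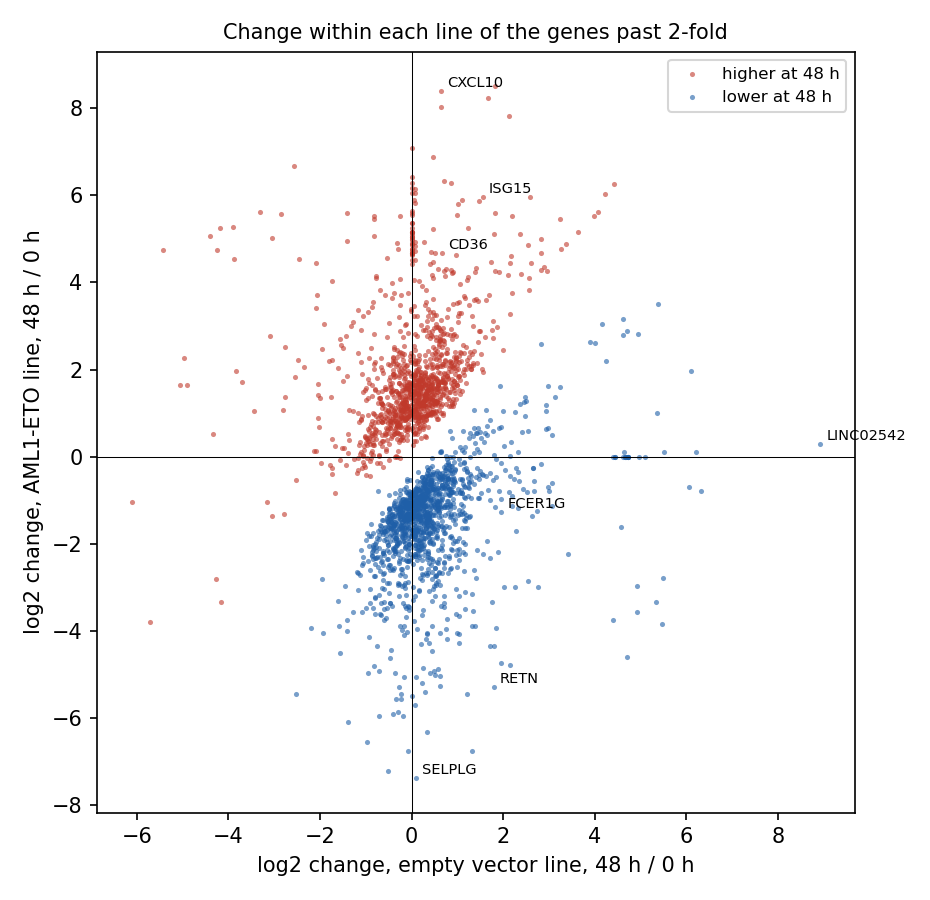
Log2 change from 0 to 48 h in the empty vector line (horizontal) and in the AML1-ETO line (vertical) for the 1171 higher genes in red and the 1343 lower genes in blue. Most red points lie above 0 and most blue points below 0 on the vertical axis near 0 on the horizontal one, and LINC02542 sits at the far right.

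The gap was partly there at 12 h. Of the higher genes 141 were past 2-fold higher at 12 h (4.47% of all measured genes were) and 786 had a ratio above 0 (53.4% of all did). Of the lower genes 201 were past 2-fold lower (3.83% of all) and 1083 were below 0 (46.1% of all). The median log2 ratio at 12 h was 0.24 in the higher and -0.46 in the lower genes. At 0 h, before the drug, it was already 0.10 in the higher and -0.03 in the lower genes. By sign, 681 of the higher and 721 of the lower genes had the direction of their 48 h ratio at 0 h. The share of all measured genes by sign at 0 h was not computed.

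At the extremes, 29 genes had at least 10 FPKM in empty vector and under 1 FPKM in AML1-ETO. Of these 29 genes, 25 are protein coding and 18 were past 2-fold lower at 12 h. Beside LINC02542, SELPLG, MS4A3 and LAT2 they included NINJ1, a membrane protein of cell rupture (0.151 FPKM in AML1-ETO, -6.32), VSIR, the immune checkpoint VISTA (31.5 against 0.319 FPKM, -6.24) and SIGLEC6, a sialic acid receptor (25.8 against 0.399 FPKM, -5.70). In the opposite direction 15 genes had at least 10 FPKM in AML1-ETO and under 1 FPKM in empty vector, of which 11 are protein coding and 3 were past 2-fold higher at 12 h. These included HAVCR2, which encodes the checkpoint TIM-3 (0.0607 against 19.3 FPKM, 6.91, from 3 against 942 reads, log2 ratio of reads 8.31, interval 6.76 to 10.59), TRANK1 (0.886 against 28.9 FPKM, 4.88) and 2 noncoding RNAs, AL445490.1 (0.118 against 23.1 FPKM, 6.73, from 3 against 581 reads, log2 ratio of reads 7.61, interval 6.06 to 9.90) and LINC02518. LINC02518 was listed at 0 in empty vector and had 174 reads in AML1-ETO, at least 58.7-fold higher against a floor of 3 reads.

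CYP1A1, the xenobiotic-metabolising enzyme, had 0.786, 3.36 and 3.75 FPKM in empty vector and 0.305, 12.2 and 91.5 FPKM in AML1-ETO, with log2 ratios of -1.13, 1.83 and 4.57 across the times, the first of the opposite sign. FCAR, the IgA receptor, was higher by a similar ratio (1.84 against 56.3 FPKM, 4.86) and was set aside, with 1.99 at 0 h and 4.83 at 12 h.

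Of the higher genes 60 were listed at 0 in empty vector and of the lower genes 27 were listed at 0 in AML1-ETO, and 5 and 2 of these are protein coding.

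The cell identity was checked against markers. Of 12 monocytic markers 10 were measured, 6 were lower and none were higher (median -2.13). CD33, CD4, PTPRC and FCGR2A were within 2-fold (-0.68, -0.08, -0.27 and 0.19), CD14 was listed at 0 in both lines at 48 h, and MPO had 0.663 and 0.559 FPKM. Most markers of other cell types were under the minimum: none of 10 erythroid and none of 9 epithelial or fibroblast markers were measured, and 1 of 8 megakaryocyte, 1 of 9 T and NK cell, 3 of 7 B cell and 3 of 8 granulocyte markers. The measured T and NK cell marker was NKG7, a granule membrane protein, at 89.9 against 9.42 FPKM (-3.24). Of the 3 measured B cell markers 1 was higher, and log2 ratios ran from -0.89 to 1.02. Of the 3 measured granulocyte markers 1 was lower, and log2 ratios ran from -4.46 to 0.89. The measured megakaryocyte marker was within 2-fold (0.59). Per autosome the median log2 ratio ran from -0.07 (chromosome 18) to 0.18 (chromosome 21) at 48 h and from -0.03 to 0.07 at 0 h.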

How the data were processed

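RNA was read from TruSeq RNA v2 libraries, which do not mark strand. The authors aligned reads to hg38 with HISAT2 2.0.5, used SAMtools 1.7 and counted reads with HTSeq 0.9.1, and deposited FPKM values made with an R script. The annotation version and the exon lengths used are not given in the sources used here. Whole reads were recovered from the FPKM steps for 99.81% of 23889 genes above 0 in at least 3 libraries, and were used for depth and intervals. The tolerance was 0.02 reads plus a small margin that grew with the number of reads. Ratios used a pseudocount of 0.1 FPKM and a minimum mean of 1 FPKM (Python 3.11.15, pandas 2.3.3, scipy 1.17.1). Group counts were made at 2-fold with no test, and the counting script was checked on simulated data. Named genes were the 12 largest ratios each way with a mean of at least 10 FPKM, up to 4 called genes per list, any member of lists of at most 20 genes, the largest of the extreme, control-driven and set-aside genes (up to 5 each way), and SPI1, CEBPA, CEBPB, RHOU, RUNX1, RUNX1T1, CBFA2T3 and ITGAM. CSF1R, CD14, MPO and others outside it were chosen after their values were seen. The members and lists were chosen with earlier results of these data known. Positions and promoters are from RefSeq on GRCh38.p14, and gene types and exon overlaps from a GRCh37 annotation matched by identifier. Some genes that the rule names are not reported here. Alternatives were another pseudocount, filter, fold, scaling, time and reference, and the 0 h ratio subtracted.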

Additional observations from a re-analysis of the deposited data

Results flagged for a closer look

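In 5 of the genes named here the log2 ratio of AML1-ETO to empty vector was past 2-fold one way at an earlier time and past 2-fold the other way at 48 h. Each side is 1 library, and the difference between the times was not tested. Of all called genes, 83 of the 1171 higher and 44 of the 1343 lower were past 2-fold the other way at 0 h. No minimum level was set for that 0 h ratio. Among the 11319 genes averaging 1 FPKM or more at 0 h, 1.85% were past 2-fold lower and 2.48% higher. CYP1A1 had -1.13 at 0 h and 4.57 at 48 h, and OAS1, an antiviral synthetase, had -1.16 and 4.46. Both genes were under 1 FPKM in either line at 0 h, with OAS1 at 0.697 FPKM in empty vector and 0.256 FPKM in AML1-ETO. S100A4 had 1.08 at 12 h and -4.76 at 48 h, and S100A6, a related calcium-binding protein, had 1.17 and -2.32. The noncoding RNA LINC02518 had -1.48 at 12 h, from 0.178 FPKM in empty vector and 0 in AML1-ETO, and 7.28 at 48 h.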

How the results depend on the processing

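Against 1171 higher genes, 1343 lower genes and 46.6% higher among called genes, no filter gave 3813, 3018 and 55.8%, a minimum of 5 FPKM 452, 766 and 37.1%, and a minimum of 10 FPKM 265, 517 and 33.9%. A 4-fold threshold gave 309, 411 and 42.9%, and the 12 h libraries 378, 391 and 49.2%. Setting no gene aside gave 49.2% higher and rescaling 43.6%. Requiring the call against each of 4 reference libraries gave 708 and 824 genes. Changing the pseudocount kept both counts within 1.5-fold. Subtracting the 0 h ratio gave 1349 higher and 1524 lower genes, and ended 10 of 111 calls among the named genes: HLA-C, B2M, FOS, BCL2A1, BAK1, PHGDH, ACACA, RFXAP, NRF1 and MT-RNR1. At 12 h, 25 of the 118 named genes past 2-fold had the other sign: RETN 0.92, CXCR4 0.23, TYROBP 0.32, RNASE2 0.77, LYZ 0.80, AZU1 0.39, ELANE 0.62, S100A4 1.08, S100A6 1.17, S100A11 0.45, BIRC5 0.18, BID 0.09, MT-ND3 0.43, MT-ND6 0.50, NRF1 0.18, AL445490.1 -0.71, IFI44 -0.98, IFIT1 -0.95, IFIT3 -0.07, TRANK1 -0.26, OAS1 -0.02, LINC02518 -1.48, NLRC5 -0.31, MT-RNR1 -0.43 and ADAR -0.11. So did 4 of the 11 named genes within 2-fold, MT-ND5 (0.12), CD4, PTPRC and FCGR2A. Filters test fewer genes, and for the other alternatives the cause was not tested. No paired analysis was possible because each group has 1 library, and for the same reason no library could be left out in turn.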

Other observations

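Further lists were chosen after the values were seen and are given as values. Interferon genes themselves were not measured, with 0 of 21 at the minimum, and IFNB1, which encodes interferon beta, was listed at 0 in empty vector and at 0.313 FPKM in AML1-ETO. Of 16 nucleic acid sensors and interferon signalling genes 2 were higher and 1 was lower (median log2 ratio 0.10). DDX58, the RNA sensor given above at 4.55, is not in this list, so the counts do not cover every sensor. AIM2, a DNA sensor, had 0.0347 against 2.52 FPKM, ADAR, the RNA editing enzyme, 53.1 against 160 FPKM, and TMEM173, which encodes STING, 20.9 against 5.33 FPKM.

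Metabolic genes differed in single members. PKM, pyruvate kinase, had 198 against 25.9 FPKM and HK2, a hexokinase, 27.5 against 68.2 FPKM, while GAPDH had 757 against 384 FPKM (-0.98). Of 15 glycolysis genes 2 were higher and 1 was lower (median -0.27). None of 46 nuclear-encoded respiratory chain genes were past 2-fold (median -0.01). Of 17 genes of mitochondrial transcription and DNA maintenance, PNPT1, an RNA-degrading enzyme, was higher (17.6 against 52.4 FPKM) and NRF1, a transcription factor, was lower (7 against 3.05 FPKM, -1.17, and -0.94 with the 0 h ratio subtracted). Among aryl hydrocarbon receptor targets 3 of 6 were higher (median 0.50), and among NRF2 targets 3 of 15 were higher and 1 was lower (median 0.17). Beside these counts, 9.55% of all measured genes were higher and 11.0% lower.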
